A study of Mus musculus with 6 samples.

Results

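The Hox genes of dorsal skin were taken as the rows of the value table that carry a single gene symbol made of Hox, a cluster letter from a to d and a number, which gave 37 genes among 35556 rows. Skin was compared between Cbl-b-/- mice (n = 3), which lack the E3 ubiquitin ligase Cbl-b, and WT mice (n = 3). All 6 mice, sex and age matched by the labels and of the BL6 background by the methods, were shaved and received a single UVB dose of 80 mJ/cm2, and skin was taken after 24 h. Total RNA of each mouse was hybridised to 1 Affymetrix Mouse Gene 1.0 ST array. No skin without UVB was analysed here, so the values describe irradiated skin only, and the ages were not stated in the labels.

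Hox genes encode homeodomain transcription factors and lie in 4 clusters, HoxA on chromosome 6, HoxB on 11, HoxC on 15 and HoxD on 2 in the mouse. Along each cluster the order of the genes follows their order of expression from head to tail, so that low paralog numbers mark anterior and high numbers posterior levels of the embryo, and genes of the same number in different clusters are paralogs. Adult skin keeps much of this pattern, best known from dermal fibroblasts, which hold a positional code of the body site they came from. Hoxc13 stands apart, because it is used in the hair matrix and cuticle, where it drives hair keratin genes at every body site.

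The Cblb row averaged 8.64 ± 0.05 in Cbl-b-/- skin and 9.76 ± 0.13 in WT skin (log2 value, SD, n = 3 each), a log2 fold change of -1.12 with no overlap (SE 0.09, limma adjusted p = 0.0782), so the labels fit the targeted gene. Array medians lay between 6.30 and 6.34, and the correlation between any 2 arrays over all rows was 0.980 to 0.993. The 8 keratinocyte markers averaged 10.51 to 10.92 and the 7 fibroblast markers 10.12 to 10.50 on every array, as the label skin asks for. WT replicate 3 stood apart in hair. Its 9 measured hair follicle markers averaged 9.09, against 5.64 and 5.73 in the other WT arrays and 5.86, 6.78 and 6.96 in Cbl-b-/- skin, and its pigment cell markers (Dct, Pmel and Tyrp1) averaged 9.40, against 6.06 to 6.77 on the other 5 arrays. Cbl-b-/- replicate 2 had the lowest adipocyte level (5 markers, 7.56, against 9.39 and 9.22 in the other Cbl-b-/- arrays and 8.77, 8.50 and 8.0 in WT skin) and the lowest skeletal muscle level (9.40, against 9.96 to 10.81 elsewhere). In bulk skin, fewer cells of a type and less RNA per cell cannot be told apart.

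The sequences printed here are the upstream stretches of Hoxa9, Hoxb4 and Hoxd4 and the microRNAs lying inside the clusters. Hoxa9, Hoxb4 and Hoxd4 are the members above background with the smallest p-values. The expression results below do not rest on these sequences. The 250 bases before each start site are given 5′ to 3′ from RefSeq on GRCm38.p6, for Hoxa9 from the minus strand (chr6:52227371-52227620) and for Hoxb4 (chr11:96318017-96318266) and Hoxd4 (chr2:74721728-74721977) from the plus strand. Capitals mark matches on either strand to TGATTNAT (a joint site of Hox and Pbx proteins), TGACAG (a Meis site), CCAAT or TATAAA.
Hoxa9: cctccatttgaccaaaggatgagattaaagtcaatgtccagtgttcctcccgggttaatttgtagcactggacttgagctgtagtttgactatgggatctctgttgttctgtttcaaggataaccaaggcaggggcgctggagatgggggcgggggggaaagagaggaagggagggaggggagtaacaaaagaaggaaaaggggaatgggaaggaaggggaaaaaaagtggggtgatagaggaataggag
Hoxb4: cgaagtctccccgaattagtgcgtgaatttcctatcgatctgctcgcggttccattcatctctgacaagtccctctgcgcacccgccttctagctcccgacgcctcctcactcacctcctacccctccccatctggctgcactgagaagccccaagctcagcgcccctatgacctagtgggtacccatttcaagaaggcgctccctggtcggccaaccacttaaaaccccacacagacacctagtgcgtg
Hoxd4: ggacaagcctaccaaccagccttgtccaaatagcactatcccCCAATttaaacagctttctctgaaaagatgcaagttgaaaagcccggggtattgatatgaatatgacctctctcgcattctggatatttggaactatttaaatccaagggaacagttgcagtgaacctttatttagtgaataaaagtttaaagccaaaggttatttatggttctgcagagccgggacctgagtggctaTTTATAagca
The paralogs Hoxb4 and Hoxd4, which were both lower in Cbl-b-/- skin, differed in base content, with 58.0% G and C and 14 CpG dinucleotides in the stretch of Hoxb4 and 40.4% and 3 in that of Hoxd4. Only the Hoxd4 stretch held any of the 4 motifs, a CCAAT and, on the opposite strand, a TATAAA. The table held 23 promoters of 21 members, of which 56.5% had a CCAAT, against 33.8% of its 32851 promoters, while TATAAA was found in 13% against 12.4%, TGATTNAT in 8.7% against 2.82% and TGACAG in 8.7% against 15.9%. These are counts of letters in the window and say nothing of binding.

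The clusters also hold microRNA genes, and the deposited rows cover 6 of them. The 5p arms of the miR-10 and miR-196 families fall into shared seeds, bases 2 to 8, in capitals.
mmu-miR-10a-5p: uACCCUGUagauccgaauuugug
mmu-miR-10b-5p: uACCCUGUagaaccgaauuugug
mmu-miR-196a-5p: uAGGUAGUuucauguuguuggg
mmu-miR-196b-5p: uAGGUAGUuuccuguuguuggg
miR-10a is encoded in HoxB just before the Hoxb4 start (chr11:96317186-96317208) and miR-10b in HoxD beside Hoxd4 (chr2:74726074-74726096). miR-196a comes from 1 locus in HoxB (chr11:96265187-96265208) and 1 in HoxC (chr15:102973365-102973386), and miR-196b lies in HoxA on the minus strand (chr6:52230129-52230150). In the mouse, miR-196 is known to direct cleavage of the Hoxb8 transcript. The array rows read RNA of these loci, not the mature microRNAs.

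To ask which Hox genes gave signal in dorsal skin, the mean of each member over the 6 arrays was set against 5.44, the 95th percentile of 1023 olfactory receptor rows, which stood in for signal without transcript. Of the 37 members, 29 lay above it (78.4%, against 71.2% of all rows with 1 gene symbol and 64.6% of all rows). At this level the shares differed by paralog number. All 14 members of paralog groups 4 to 8 were above the level, as were 6 of 7 in groups 1 to 3, and 9 of 16 in groups 9 to 13. Within the posterior groups, 4 of 4 members of group 9 and 3 of 3 of group 10 were above it, then 1 of 3 of group 11, 0 of 2 of group 12 and 1 of 4 of group 13. The 8 members below were Hoxa11 and Hoxa13, known for limb and urogenital patterning, Hoxb13, known from prostate and tail, Hoxc11, Hoxc12, Hoxd1, Hoxd12 and Hoxd13. Near the threshold, Hoxd11, Hoxa10 and Hoxc10 averaged 5.55, 5.60 and 5.73, and Hoxa13, Hoxc12 and Hoxd13 averaged 5.13, 4.89 and 4.81. At the 99th percentile of olfactory receptor rows (6.25), 20 members were above. Hoxa2, Hoxa3, Hoxa10, Hoxb7, Hoxc4, Hoxc10, Hoxd3, Hoxd9 and Hoxd11 were then lost, so the shares by paralog number depend on the level. Lying above 5.44 does not by itself mark a gene of dorsal skin. Of 15 measured regional factors of limb, ventral and face skin, 10 were also above it. These are signals of different probes, so no order of transcript levels among genes is drawn from them.

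**Figure D1:**
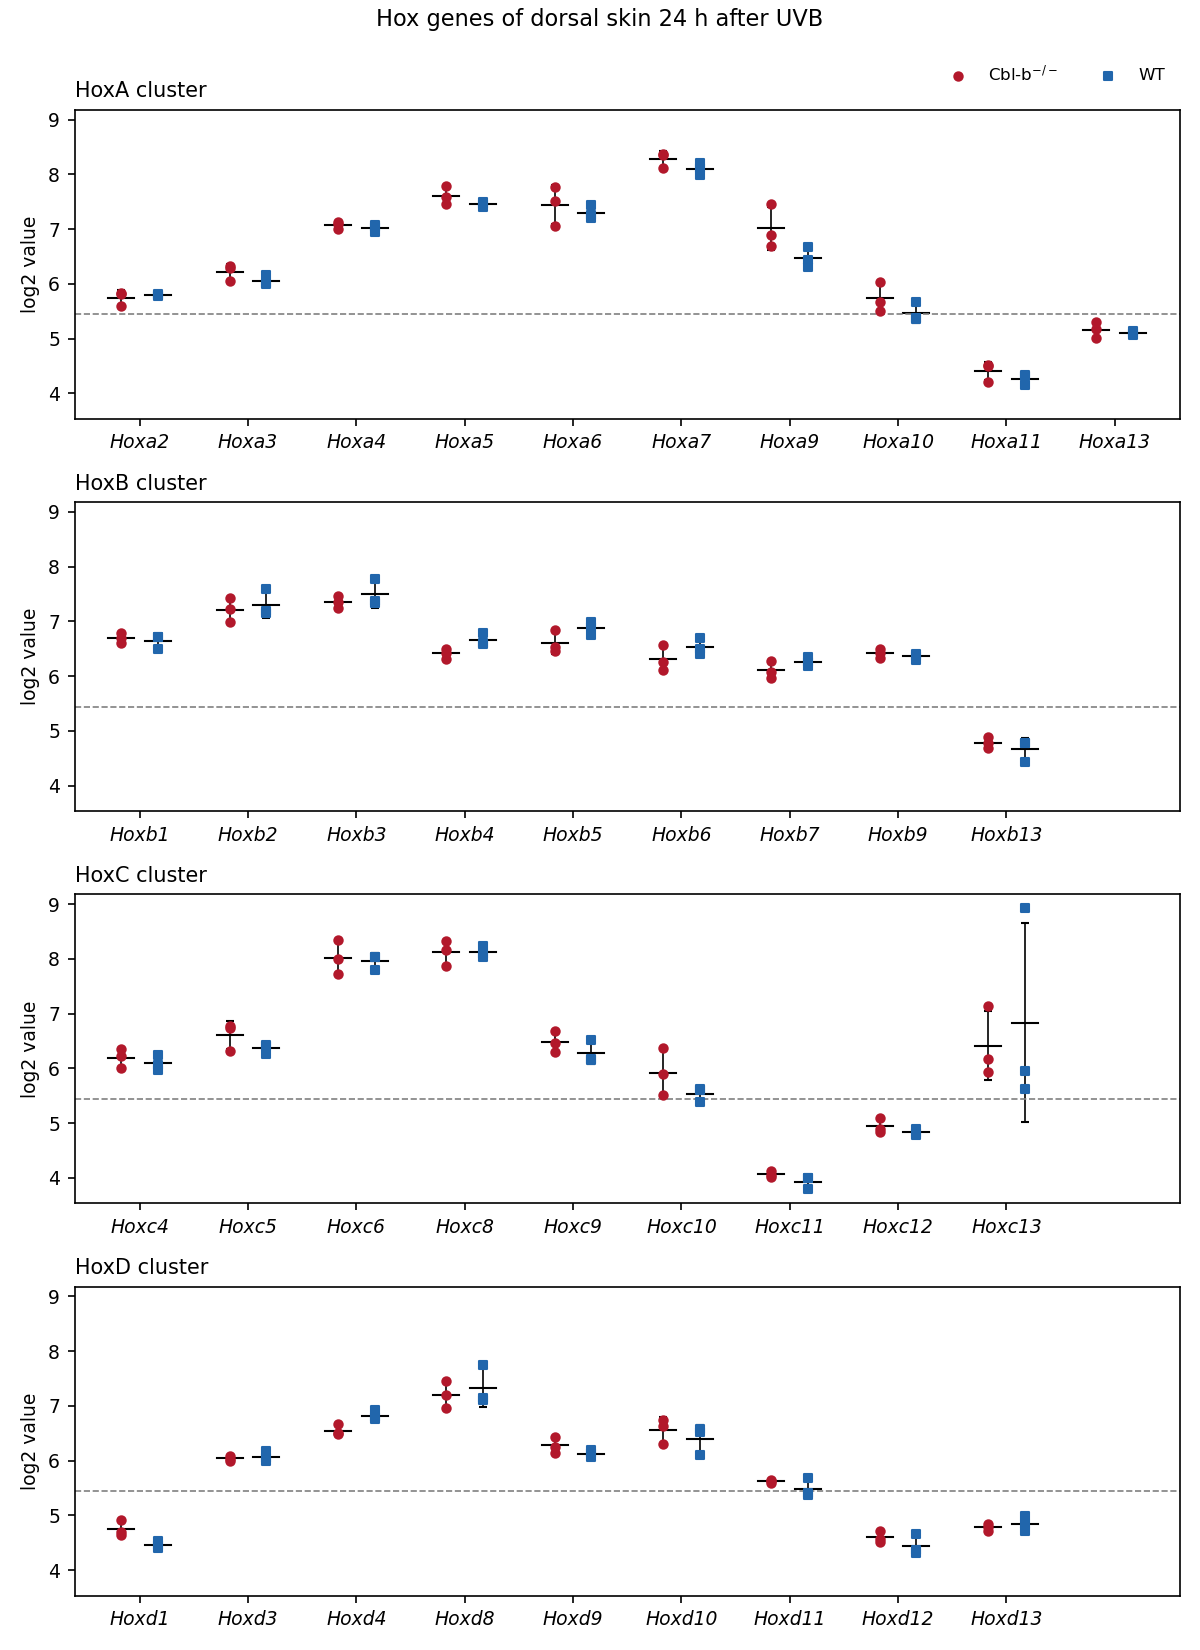
Log2 value of each of the 37 Hox genes on each array, by cluster and paralog number. Red circles are Cbl-b-/- arrays, blue squares WT arrays, black bars the mean and SD (n = 3 each), and the dashed line is the olfactory receptor level of 5.44. The middle of each cluster lies above the line, the groups lie close together for nearly every gene, and Hoxc13 has the widest spread.

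Between genotypes, the positional code differed little. No Hox gene reached the study's criteria of an unadjusted p under 0.05 and at least a 1.5-fold difference (0 of 37, against 1.22% of all rows, 0.276% higher and 0.945% lower), either in limma or in the methods' per-row test. In limma, 2 members had an unadjusted p under 0.05 and were higher in Cbl-b-/- skin (Hoxa9 and Hoxd1, against 3.68% of all rows), and 2 were lower (Hoxb4 and Hoxd4, against 2.87%), together 10.8% of the members and 6.55% of all rows. The smallest p of any member after adjustment over all rows was 0.743, that of Hoxd4, and 1 row of the whole table (0.00281%) had an adjusted p under 0.05. All 3 Cbl-b-/- arrays were above all 3 WT arrays for 3 members (Hoxa9, Hoxc11 and Hoxd1, against 8.66% of all rows) and below them for 2 (Hoxb4 and Hoxd4, against 4.89%), together 13.5% of the members and 13.5% of all rows. The median SE of a log2 fold change was 0.11, and the 95% interval of 30 members lay inside 1.5-fold on both sides. For the remaining 7 (Hoxa6, Hoxa9, Hoxa10, Hoxb5, Hoxc10, Hoxc13 and Hoxd8) a difference of 1.5-fold was within the interval.

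Hoxd4 and Hoxb4, paralogs that pattern the neck vertebrae and hindbrain, had the clearest lower values. Hoxd4 was 6.66, 6.48 and 6.50 in Cbl-b-/- skin, against 6.76, 6.79 and 6.92 in WT skin (log2 fold change -0.27, SE 0.09, limma adjusted p = 0.743, 0.0207 before adjustment). Hoxb4, also known for expanding blood stem cells when forced, was 6.50, 6.32 and 6.42 in Cbl-b-/- skin, against 6.58, 6.60 and 6.79 in WT skin (log2 fold change -0.24, SE 0.10, adjusted p = 0.749, 0.0405 before adjustment). All Cbl-b-/- arrays lay below all WT arrays for both genes, and the exact two-sided permutation test gave 0.10 for each, the smallest p that 3 against 3 allows. WT replicate 3 was the highest array for both. Neither Hoxd4 nor Hoxb4 had an unadjusted limma p under 0.05 without Cbl-b-/- replicate 2 (0.0664 and 0.122) or replicate 3 (0.0581 and 0.0782). The same held without WT replicate 3 (0.0611 and 0.112), and for Hoxb4 without WT replicate 2 (0.0615). The other paralogs of the group did not follow, with Hoxa4 at a log2 fold change of 0.06 and Hoxc4 at 0.11. In the annotation Hoxd4 overlaps Hoxd3 and Hoxb4 overlaps Hoxb3, and those neighbours had log2 fold changes of -0.02 and -0.14.

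Hoxa9, known from posterior thoracic patterning and from blood stem cells, had the largest difference of any member. It was 6.90, 6.69 and 7.45 in Cbl-b-/- skin, against 6.68, 6.31 and 6.44 in WT skin, and the groups were separated by the narrow gap between Cbl-b-/- replicate 2 and WT replicate 1. Its means were 7.01 ± 0.39 and 6.48 ± 0.18 (SD, n = 3 each), a log2 fold change of 0.53 (SE 0.21, limma p = 0.0391, adjusted p = 0.749, exact permutation p = 0.10). The methods' per-row test gave 0.0995 before adjustment, so Hoxa9 was not under 0.05 there. With 1 array dropped at a time the log2 fold change ran from 0.32 to 0.69, and Hoxa9 met both criteria if the dropped array was replicate 2 of Cbl-b-/- (0.69) or replicate 1 of WT (0.63). More rows of the whole table also met them in those fits (790 and 553, against 434 with every array kept). Hoxd1, which in the mouse shapes the wiring of pain sensing neurons, was 4.65, 4.69 and 4.92 in Cbl-b-/- skin, against 4.45, 4.54 and 4.40 in WT skin (log2 fold change 0.29, SE 0.10, adjusted p = 0.748, 0.027 before adjustment). Its row lies below the olfactory receptor level, where rows without expected transcript were themselves displaced upward. Of the 1023 olfactory receptor rows, 69.4% were above 0 in log2 fold change (median 0.048), and 36 had an unadjusted p under 0.05 and were higher in Cbl-b-/- skin, against 3 that were lower.

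**Figure D2:**
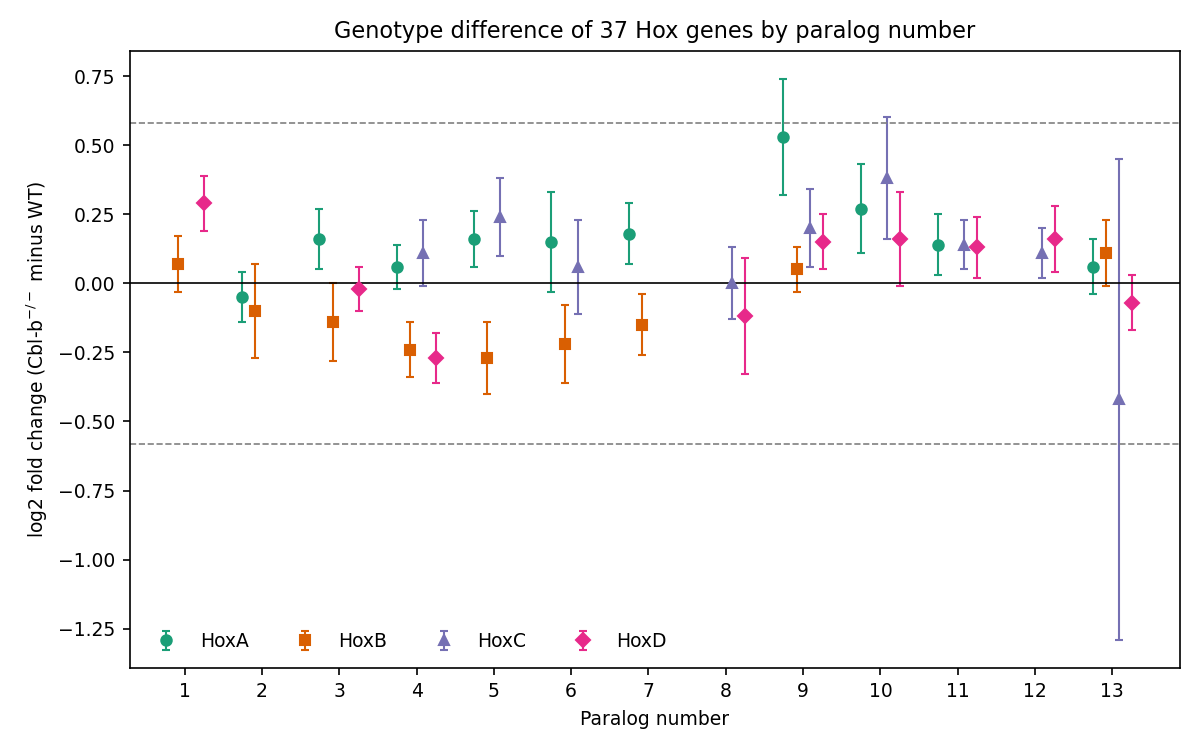
Log2 fold change (Cbl-b-/- minus WT) of the 37 Hox genes against paralog number, with bars for the SE from limma, n = 3 arrays per group, and colour and shape for the cluster. Dashed lines mark 1.5-fold in either direction. Hoxb2 to Hoxb7 lie below 0, and every gene of paralog groups 9 to 12 lies above it.

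Arranged by cluster, HoxA and HoxB lay on opposite sides of 0. The median log2 fold change was 0.153 for HoxA (9 of 10 members above 0), -0.137 for HoxB (3 of 9), 0.113 for HoxC (7 of 9) and 0.129 for HoxD (5 of 9), against 0.109 for all members (24 of 37, or 64.9%) and 0.020 for all rows (55.8% above 0). In HoxA, Hoxa2, needed for the second pharyngeal arch, had -0.05, and the anterior and middle members Hoxa3 to Hoxa7 had 0.06 to 0.18. Hoxa7, known from human keratinocytes, was 8.36, 8.11 and 8.37 in Cbl-b-/- skin, against 8.21, 8.12 and 7.98 in WT skin. Hoxa5, which patterns lung and the neck to thorax border, was 7.78, 7.45 and 7.59 in Cbl-b-/- skin, against 7.49, 7.46 and 7.40 in WT skin, and its neighbour Hoxa6 was 7.76, 7.06 and 7.52 against 7.44, 7.21 and 7.25. For all 3 genes the groups overlapped, Cbl-b-/- replicate 2 was the lowest Cbl-b-/- array, and the differences were 0.18, 0.16 and 0.15 with SEs of 0.11, 0.10 and 0.18. Hoxa3 spans Hoxa4, Hoxa5 and Hoxa6 in the annotation, and whether their rows share signal was not tested.

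In HoxB, the stretch Hoxb2 to Hoxb7 was lower in Cbl-b-/- skin by estimate at every gene, with log2 fold changes of -0.10 to -0.27, while Hoxb1, Hoxb9 and Hoxb13 had 0.07, 0.05 and 0.11. Hoxb5 was 6.85, 6.53 and 6.45 in Cbl-b-/- skin, against 6.90, 6.75 and 6.99 in WT skin (log2 fold change -0.27, SE 0.13, adjusted p = 0.751), and Hoxb6, a marker of lateral mesoderm, was 6.56, 6.25 and 6.11 against 6.40, 6.50 and 6.69 (-0.22, SE 0.14). Hoxb2 and Hoxb3, which act in the hindbrain, were 7.22, 6.98 and 7.43 and 7.47, 7.24 and 7.36 in Cbl-b-/- skin, against 7.15, 7.18 and 7.59 and 7.34, 7.37 and 7.78 in WT skin. WT replicate 3, the array with the high hair level, was the highest of all 6 arrays for each of Hoxb2 to Hoxb7 and the highest WT array for 9 of 9 HoxB members. Without it the median of the HoxB cluster was 0.004, with Hoxb2 at 0.04 and Hoxb3 at 0.0039. Hoxb4, Hoxb5 and Hoxb6 then still had -0.18, -0.22 and -0.14. Hoxb7 stayed below 0 whichever array was dropped (-0.24 to -0.08). The part of hair content in these values was not tested. A row shared by Hoxb7 and Hoxb8, kept out of the members for that reason, was 6.41, 6.0 and 6.51 in Cbl-b-/- skin, against 6.20, 6.27 and 7.10 in WT skin, again with WT replicate 3 highest.

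In HoxC, Hoxc8, which patterns the thoracic skeleton, was 8.32, 7.87 and 8.17 in Cbl-b-/- skin, against 8.03, 8.24 and 8.09 in WT skin, with means of 8.12 in both and a 95% interval of the log2 difference from -0.32 to 0.32. Hoxc6 was 7.99, 7.73 and 8.35 against 8.04, 7.79 and 8.04 (0.06, SE 0.17), and Hoxc4 had 0.11. Hoxc5 was 6.73, 6.31 and 6.78 in Cbl-b-/- skin, against 6.42, 6.27 and 6.40 in WT skin (0.24, SE 0.14, adjusted p = 0.777). These middle HoxC genes overlapped between genotypes. In HoxD, Hoxd8 was 7.19, 6.97 and 7.46 in Cbl-b-/- skin, against 7.15, 7.10 and 7.74 in WT skin (-0.12, SE 0.21), with WT replicate 3 highest as in HoxB. Hoxd3 had -0.02.

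The posterior genes of groups 9 to 12 shared a direction across clusters. All 12 had a log2 fold change above 0, at 0.05 to 0.53, against 55.8% of all rows and 69.4% of olfactory receptor rows above 0. Hoxa11, Hoxc11, Hoxc12 and Hoxd12 lie below the olfactory receptor level, where rows were displaced upward. All 12 stayed above 0 when any 1 array was left out. This grouping was drawn after the values were seen, leaves out group 13 (2 of 4 above 0) and carries no test. Keeping the sign is thus no separate support. The median over groups 9 to 13 was 0.138 (14 of 16 above 0), against 0.030 for groups 4 to 8 (7 of 14) and -0.024 for groups 1 to 3 (3 of 7), and it was 0.160 over the 9 posterior members above the olfactory receptor level. Apart from Hoxa9, none of the 12 had an unadjusted p under 0.05. Hoxc10, a lumbar patterning gene, was 5.89, 5.51 and 6.37 in Cbl-b-/- skin, against 5.61, 5.38 and 5.63 in WT skin (0.38, SE 0.22, adjusted p = 0.775). Its paralog Hoxa10, which also acts in the uterus, was 5.66, 5.51 and 6.04 in Cbl-b-/- skin, against 5.35, 5.37 and 5.67 in WT skin (0.27, SE 0.16, adjusted p = 0.779). The third paralog Hoxd10 was 6.30, 6.63 and 6.75 in Cbl-b-/- skin, against 6.57, 6.52 and 6.11 in WT skin (0.16, SE 0.17). In each of these the groups overlapped.

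Cbl-b-/- replicate 3 was the highest of all 6 arrays for each of the 7 members of groups 9 and 10. Hoxc9 was 6.46, 6.30 and 6.68 in Cbl-b-/- skin, against 6.51, 6.17 and 6.16 in WT skin (0.20, SE 0.14), and Hoxb9 and Hoxd9 had 0.05 and 0.15. Without Cbl-b-/- replicate 3 the median over groups 9 to 13 was 0.112, and Hoxa9 had 0.32. The posterior members near or below the olfactory receptor level had small differences. Hoxc11 was 4.01, 4.12 and 4.06 in Cbl-b-/- skin, against 4.0, 3.79 and 3.99 in WT skin, with no overlap but a log2 fold change of only 0.14 (SE 0.09), and Hoxa11, Hoxb13, Hoxc12, Hoxd11 and Hoxd12 had 0.11 to 0.16. Hoxa13 had 0.06 and Hoxd13, which shapes the digits, had -0.07. The biopsy level along the back is not given per mouse, and its part in these values was not tested.

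**Figure D3:**
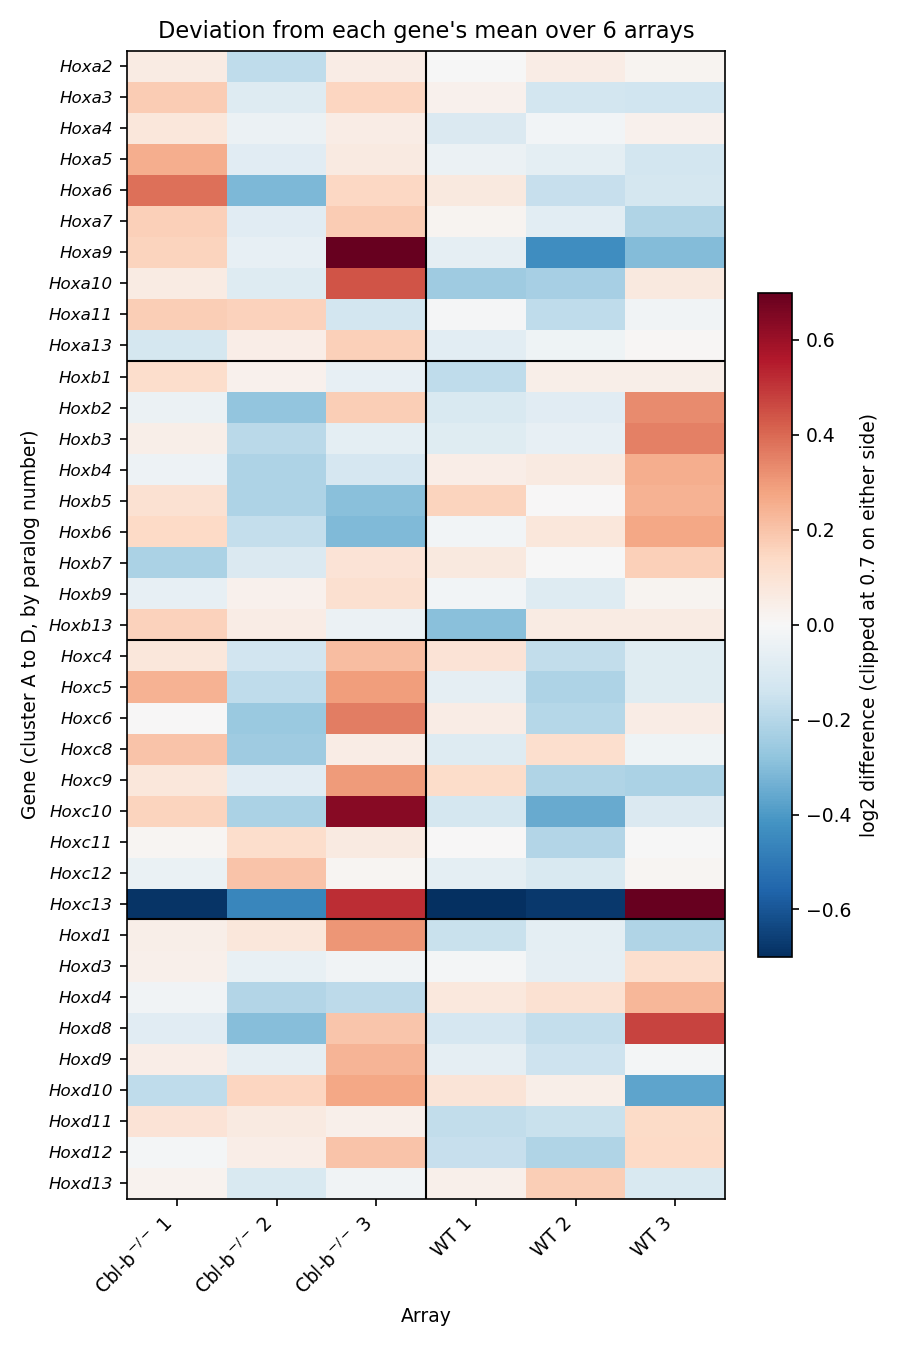
Log2 value of each Hox gene on each array minus the mean of that gene over the 6 arrays, with red above and blue below the mean, Cbl-b-/- arrays on the left and colours clipped at 0.7. The dark cells are those of Hoxa9 and Hoxc10 in Cbl-b-/- replicate 3 and of Hoxc13, and Hoxb2 to Hoxb7 are red in WT replicate 3.

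Across the arrays, members of a cluster often shared their highest or lowest array. Cbl-b-/- replicate 2, the array with the lowest adipocyte and muscle levels, was the lowest of the 3 Cbl-b-/- arrays for 22 of 37 members and for 8 of 10 HoxA members. No share over all rows was taken for such counts, and whether they reflect an offset of a whole array was not tested. The median deviation of HoxA members from their own means was 0.16, -0.08 and 0.15 in Cbl-b-/- skin, against -0.02, -0.10 and -0.08 in WT skin. For HoxC it was 0.08, -0.18 and 0.30 in Cbl-b-/- skin, against -0.06, -0.21 and -0.03 in WT skin. For HoxB it was 0.04, -0.17 and -0.05 in Cbl-b-/- skin, against -0.02, 0.01 and 0.24 in WT skin. Within each of these 3 clusters, the arrays of at least 1 genotype were thus as far apart as the genotypes. The WT arrays of HoxA lay closer together than that. Fibroblast markers, the usual source of the code, averaged 10.14, 10.12 and 10.27 in Cbl-b-/- skin, against 10.27, 10.50 and 10.30 in WT skin, with Cbl-b-/- replicate 2 lowest of the 6. The part of fibroblast, fat and muscle content in the Hox values was not tested.

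Hoxc13 varied more than any other member and did so within genotype. It was 5.94, 6.17 and 7.14 in Cbl-b-/- skin, against 5.63, 5.95 and 8.92 in WT skin. WT replicate 3 stood 2.98 above the median of the other 5 arrays, and the range over all arrays was 3.30, against 1.14 for Hoxa9, the next widest, and a median of 0.44. The means were 6.42 ± 0.64 in Cbl-b-/- skin and 6.83 ± 1.82 in WT skin (SD, n = 3 each), a log2 fold change of -0.42 with an SE of 0.87 (limma p = 0.65, adjusted p = 0.935, exact two-sided permutation p = 0.9). The 95% interval ran from -2.51 to 1.68, so these arrays do not fix its direction. Without WT replicate 3 the log2 fold change was 0.63.

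The hair genes varied over the arrays as Hoxc13 did. Its cluster neighbours Hoxc12 and Hoxc11 average below the olfactory receptor level and lacked its rise in WT replicate 3. Their ranges over the arrays were 0.31 and 0.33. The hair genes that also averaged below that level, Krt28, Krt32, Krt36 and Krt84, ranged over 4.33, 1.88, 1.45 and 1.16. Each of them was above the level in WT replicate 3 (8.57, 6.67, 6.43 and 6.08). Whether the Hoxc12 and Hoxc11 rows carry transcript signal was not tested. Hoxc12 was 4.84, 5.09 and 4.90 in Cbl-b-/- skin, against 4.82, 4.78 and 4.90 in WT skin. The hair cortex and cuticle list, 28 of 31 genes measured, averaged 5.89, 6.54 and 6.81 in Cbl-b-/- skin, against 5.71, 5.83 and 8.63 in WT skin. Hoxc13 and the list thus had the same highest array, WT replicate 3, the same second, Cbl-b-/- replicate 3, and the same lowest, WT replicate 1. Each of the 28 hair genes was highest in WT replicate 3, and 17 were next highest in Cbl-b-/- replicate 3. Krt33a, a hair cortex keratin, was 5.25, 6.41 and 7.45 in Cbl-b-/- skin, against 5.09, 5.24 and 9.90 in WT skin. Foxn1, the transcription factor lost in nude mice and a known target of Hoxc13 in the mouse, was 7.41, 7.80 and 7.78 in Cbl-b-/- skin, against 7.18, 7.21 and 8.61 in WT skin.

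The genotype difference of the hair list also rested on that array. None of the 28 met the criteria or had an unadjusted p under 0.05, and 26 had a log2 fold change below 0 with a median of -0.312. The largest in size were those of Dsg4, a desmosomal cadherin of the hair shaft (-1.04, SE 0.96), and Krt28, an inner root sheath keratin (-0.76, SE 1.15). Without WT replicate 3, 25 of the 28 lay above 0 (median 0.48), and Krt31 and Krt73 met the criteria.

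**Figure D4:**
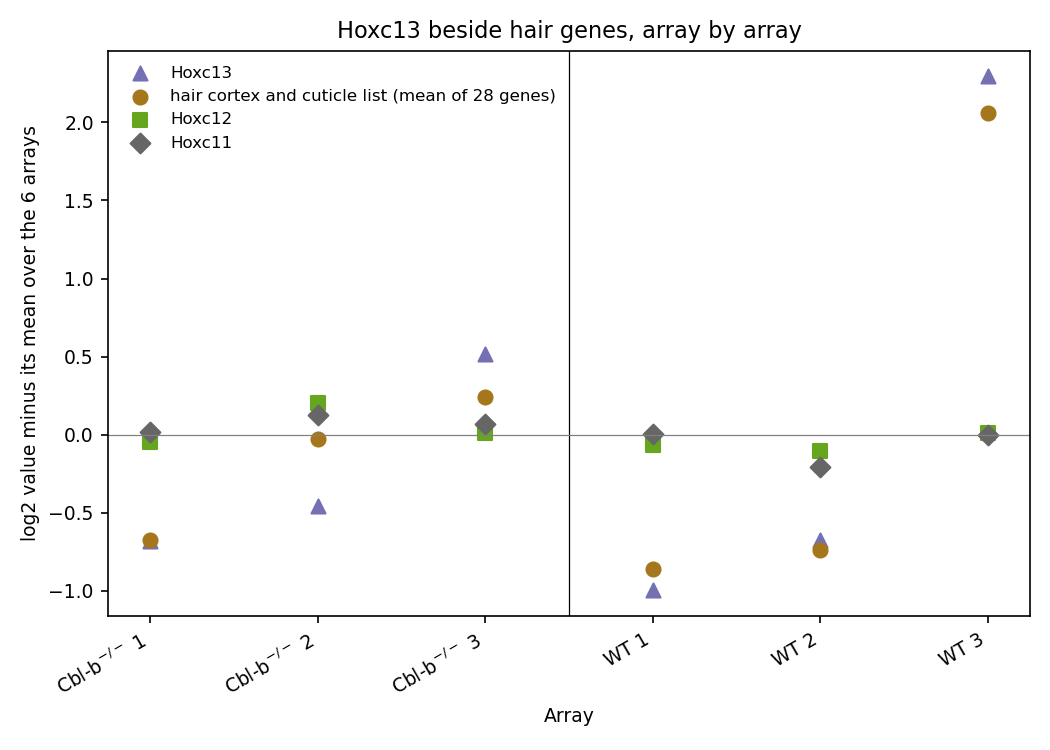
Log2 value minus its mean over the 6 arrays for Hoxc13 (triangles), the mean of 28 hair cortex and cuticle genes (circles), Hoxc12 (squares) and Hoxc11 (diamonds), Cbl-b-/- arrays on the left. Hoxc13 and the hair list are highest in WT replicate 3 and second highest in Cbl-b-/- replicate 3. The rows of Hoxc12 and Hoxc11 average below the olfactory receptor level, are flat over the arrays and lack the rise of Hoxc13 in WT replicate 3.

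Among the noncoding RNAs of the clusters, Mir10a alone met the criteria (1 of 10 measured, of 17 listed, 1 lower and 0 higher, against 0.945% of all rows lower and 0.276% higher). Its row was 3.65, 3.00 and 3.05 in Cbl-b-/- skin, against 3.78, 3.92 and 3.84 in WT skin (log2 fold change -0.62, SE 0.18, limma adjusted p = 0.716, 0.0122 before adjustment). All Cbl-b-/- arrays were below all WT arrays, but the row lies below the olfactory receptor level, and the criteria were no longer met when Cbl-b-/- replicate 2, replicate 3 of that genotype or WT replicate 2 was dropped. Mir10b, which shares its seed, was 3.83, 3.65 and 3.56 in Cbl-b-/- skin, against 3.76, 3.47 and 3.79 in WT skin (0.01, SE 0.12). Mir10a lies beside Hoxb4 and Mir10b beside Hoxd4, but the 2 microRNA rows averaged 3.54 and 3.68, near the olfactory receptor median of 3.64. No contrast between the 2 loci is drawn from them. Mir196b had 0.23, Mir196a-1 0.01, Mir196a-2 0.18 and Mir615 0.04, all with overlapping groups. The median of the list was 0.063.

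The proteins that work with Hox factors or set the state of their clusters showed no member past the criteria. The TALE homeodomain cofactors, of which the Pbx and Meis proteins bind DNA jointly with Hox proteins, were all above the olfactory receptor level, with 10 of 11 measured, 6 above 0, none at an unadjusted p under 0.05 and a median of 0.084. Meis2 was 6.95, 6.93 and 7.17 in Cbl-b-/- skin, against 6.94, 6.79 and 6.56 in WT skin (0.26, SE 0.12, adjusted p = 0.751), and Tgif1 had 0.17 (SE 0.11). Of 25 measured Polycomb and trithorax genes, which silence Hox clusters and keep them active, 1 had an unadjusted p under 0.05 and was higher and 1 was lower, with a median of 0.016. These 2 are 8% of the list, close to the 6.55% of all rows. The lower gene was Rnf2, the catalytic subunit that ubiquitinates histone H2A, at 8.04, 7.86 and 7.98 in Cbl-b-/- skin, against 8.18, 8.20 and 8.24 in WT skin (-0.24, SE 0.08, adjusted p = 0.743, 0.0212 before adjustment, no overlap). The higher gene was Cbx2, a chromodomain subunit of the same complex, at 8.46, 8.32 and 8.42 in Cbl-b-/- skin, against 8.09, 8.12 and 8.29 in WT skin (0.23, SE 0.09, adjusted p = 0.749, 0.0412 before adjustment, no overlap). Cbx7 had 0.30 with an SE of 0.20 and overlapping groups.

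Genes beside the clusters and other regional factors served as a setting for the Hox values. Of 11 measured flanking genes none met the criteria, 1 had an unadjusted p under 0.05 (9.09%, against 6.55% of all rows), and the median was -0.007. Evx1, a homeobox gene at the posterior end of HoxA, was 5.13, 5.23 and 5.18 in Cbl-b-/- skin, against 4.94, 4.88 and 5.09 in WT skin (0.21, SE 0.09, adjusted p = 0.749, 0.0499 before adjustment), below the olfactory receptor level, and Cbx5, beside HoxC, had -0.25 (SE 0.15). Of 15 measured regional factors, 10 lay above the olfactory receptor level, none met the criteria, 1 had an unadjusted p under 0.05 (6.67%, about the 6.55% of all rows), and the median was 0.091. Shox2, a limb and face gene, was 5.10, 5.12 and 5.21 in Cbl-b-/- skin, against 4.89, 4.76 and 4.85 in WT skin (0.31, SE 0.08, adjusted p = 0.685, 0.00608 before adjustment), with no overlap and again below that level. Tbx18, a dermal papilla gene, was 6.41, 6.15 and 6.60 in Cbl-b-/- skin, against 6.27, 6.06 and 6.08 in WT skin (0.25, SE 0.13), with overlapping groups. Dlx2, a homeobox gene also used in hair, was 5.77, 5.94 and 5.87 in Cbl-b-/- skin, against 5.50, 5.63 and 7.01 in WT skin, with the same array on top as for Hoxc13.

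**Figure D5:**
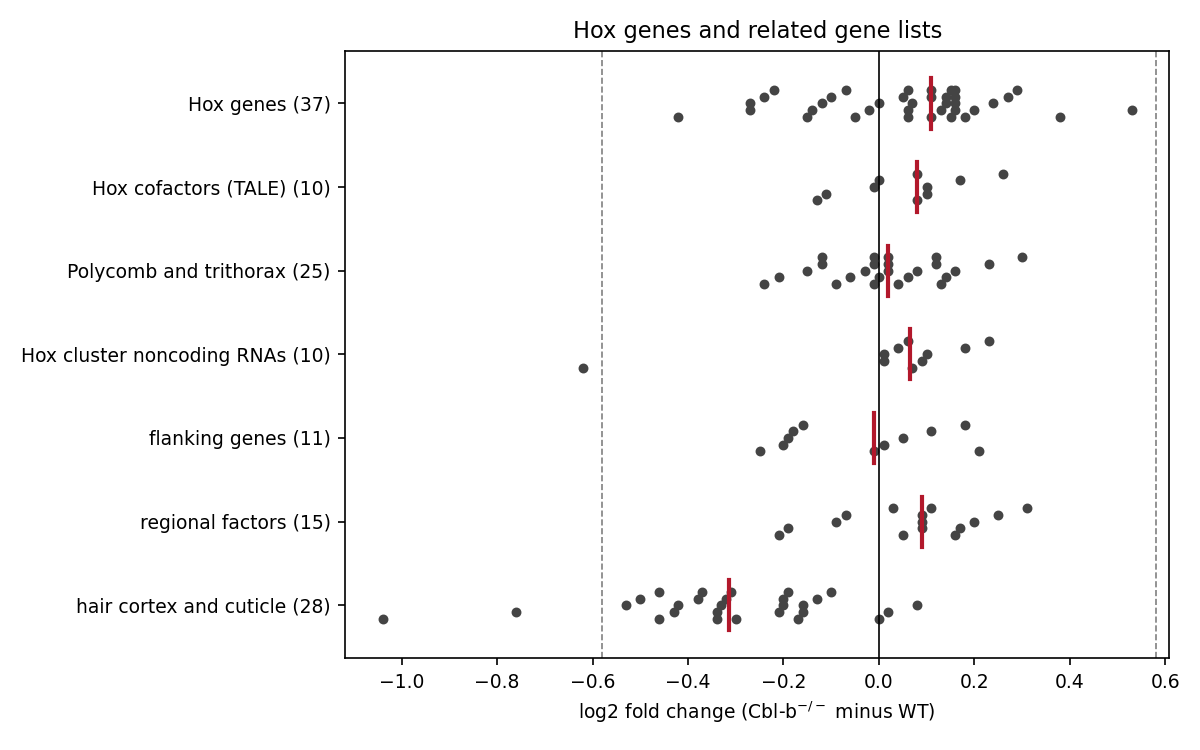
Log2 fold change (Cbl-b-/- minus WT) of each measured gene in the Hox set and 6 related lists, number of genes in brackets. Each point is a gene, the red bar the median of the list and the dashed lines 1.5-fold in either direction. Mir10a, Dsg4 and Krt28 lie beyond the line, and the hair list is shifted to the left.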

How the data were processed

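The authors deposited log2 values from robust multichip averaging of Affymetrix Mouse Gene 1.0 ST arrays (Partek 6.5 in the submitters' processing notes). That step quantile normalizes arrays, so a shift shared by most genes is not visible. No detection call or scanner file was used. A genome build entered only the printed sequences and positions and the gene overlaps, not the expression values. Rows were named from the platform annotation (21789 with 1 symbol, 1621 with several, 12146 with none), and rows with several symbols were kept out of the Hox set. limma 3.58.1 in R 4.3.3 was fitted to all 35556 rows, Cbl-b-/- minus WT, with Benjamini-Hochberg adjustment over all rows and the methods' criteria (unadjusted p under 0.05 and 1.5-fold). The fit was tested on simulated data.

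The members and lists were chosen with earlier results of these data known. Named were Hoxc13, members at an unadjusted p under 0.05, the 5 highest and 5 lowest fold changes above the olfactory receptor level, the 3 strongest signals per cluster, and the 2 largest changes per other list. Other genes named were chosen after their values were seen. The methods call the arrays biological replicates, and 3 per group limit the precision.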

Additional observations from a re-analysis of the deposited data

How the results depend on the processing

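Alternatives were the methods' per-row test, cyclic loess, quantile normalization, limma with an intensity trend, a filter at the olfactory receptor level, the replicate number as a block, and leaving out each array. The medians by paralog class and the count at an unadjusted p were added after the data were seen. Outside leaving out arrays, the counts, medians and named genes kept their direction and their side of the combined criteria except 3, given next. Hoxc8 had 0.02 after quantile normalization. With the filter, 3 Hox genes of 29 had groups that did not overlap, and 0 noncoding RNAs met the criteria, since Hoxc11, Hoxd1 and Mir10a were then not tested. At an unadjusted 0.05 alone, Hoxa9 was lost in the methods' per-row test (0.0995), Hoxd1 after cyclic loess (0.0671) and with the replicate block (0.0532), and Hoxb4 with the block (0.0583), where Hoxa10 was gained (0.0317). All 12 genes of paralog groups 9 to 12 were above 0 after quantile normalization, and also after cyclic loess, which moved the median of all rows to -0.006.

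Leaving out each array in turn gave 0 to 2 Hox genes meeting the criteria (Hoxa9 and Hoxc10 at 0.69 and 0.59 without Cbl-b-/- replicate 2, and Hoxa9 at 0.63 without WT replicate 1), 1 to 5 at an unadjusted p under 0.05, 6 to 13 without overlap and 29 above the olfactory receptor level each time. Dropping an array can only keep or raise the count without overlap. No share over all rows stands beside the counts at an unadjusted p and without overlap, so neither is read as a Hox result. Of all rows, 434 met the criteria with every array kept. Dropping Cbl-b-/- replicate 2 raised this to 790, and dropping replicate 1 of WT raised it to 553. The Hox genes gained in those fits are thus not read as a Hox result either. Hoxc13 ran from -1.02 to 0.63. Other named genes that changed sign were Hoxa6 (-0.01 to 0.34), Hoxb2 (-0.21 to 0.04), Hoxb3 (-0.21 to 0.0039), Hoxc6 (-0.10 to 0.21), Hoxc8 (-0.10 to 0.12) and Hoxd8 (-0.25 to 0.08). The median was 0.063 to 0.111 over all members, 0.099 to 0.241 in HoxA, -0.189 to 0.004 in HoxB, 0.068 to 0.206 in HoxC and 0.063 to 0.125 in HoxD. It was -0.052 to 0.039 in paralog groups 1 to 3, -0.061 to 0.109 in groups 4 to 8 and 0.089 to 0.171 in groups 9 to 13. The criteria were met by 0 to 1 noncoding RNAs, 0 to 2 hair genes and 0 genes of the other lists, and by 428 to 790 of all rows. Of the 37 members, 24 kept their sign each time. Between arrays with the same replicate number, deviations from the group means correlated at 0.233, 0.092 and 0.247. Between arrays with different numbers the correlations were -0.327 to 0.232, and whether the number marks a pairing was not tested. With the number as a block 0 Hox genes met the criteria, 3 had an unadjusted p under 0.05 and Hoxc13 had -0.42.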
